A study of Oryza sativa with 156 samples.

Results

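The 150 genes described here are those whose leaf RNA levels most strongly part the severe-drought libraries of rice into a higher and a lower set. Levels were log2(1 + CPM), where CPM is the count divided by the library's total in M counts (mega, as for the depths given later). For each identifier, the mean level over severe control days 0 to 2 and severe drought days 6 to 12 (30 libraries, the lower set) was subtracted from that over severe control days 3 to 12 and severe drought days 0 to 5 (48 libraries, the higher set). Of 55986 identifiers, 14443 had a mean of at least 2 CPM over the severe libraries, and the 150 with the largest absolute difference were taken. The members were thus chosen by their measured values in the severe course. Of these, 121 were higher and 29 lower in the higher set.

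The samples are leaves of the rice cultivar IR64, from which polyA RNA was sequenced daily over 13 days, day 0 to day 12, in a moderate and a severe drought course. Each course had a drought arm and its own irrigated control arm, and each arm had 3 libraries a day, in 52 groups. Irrigation ended 14 days after sowing in the moderate course, and in the severe course the pots were raised, which made them drain faster. Seeds were planted in single pots of calcined clay in a growth chamber, and the labels do not say which plants gave which replicate, so a p-value reflects only how these libraries vary, which may be technical.

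Library totals were 6.42 to 18.9 M counts in the higher set (median 11.2), 10.8 to 24.2 M in the lower set (median 17.1) and 8.82 to 26.2 M in the moderate course (median 17.9). The higher set was thus the shallower of the sets, and the part of depth in the differences was not tested. All 11684 identifiers of chromosomes 10, 11 and 12 had 0 counts in every library used, so the members lie on chromosomes 1 to 9. In the members without overlap between the sets, moderate drought day 0 replicate 2 stood apart from its label's group toward the higher set. In the same members, severe control day 0 replicate 3 and severe drought day 9 replicate 2 stood above the rest of the lower set. Results that rest on these 3 libraries are given with and without them. The reference table at hand matched 0 of the identifiers, so they carry no gene names or functions here, and the leaf label could not be checked against marker genes.

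As background, LOC_Os identifiers hold the chromosome number before the letter g and then a serial number that increases along that chromosome, so close numbers mean neighbouring genes. The genome build used for counting, IRGSP-1.0, is that of the japonica cultivar Nipponbare, while IR64 is an indica cultivar, and rice cultivars differ in the presence, copy number and activity of some genes. Under drought, rice leaves lower the RNA of growth and photosynthesis genes and raise that of stress genes, so a difference between days or arms can also hold such a response. In bulk leaf RNA, fewer cells of a type and less RNA per cell cannot be told apart.

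The 2 sets cross the treatments. Libraries are called by their labels throughout, which nothing else in the files allowed to be checked, and whether the leaves of each severe library had the labelled treatment was not tested. From day 0 to day 2 the drought libraries are in the higher set and the controls in the lower, and from day 6 to day 12 it is the reverse. On days 3 to 5 both arms are in the higher set. LOC_Os04g16770 had the largest difference, 3.71 on the log2 scale. In severe control it was at 62.7, 84.4 and 77.2 CPM on day 2 and at 639, 546 and 906 CPM on day 3. In severe drought it was at 834, 1230 and 1140 CPM on day 5 and at 35.8, 74.6 and 24.2 CPM on day 6. It was therefore high in the controls on day 3 and low in the drought leaves on day 6, with none of these 12 libraries between 84.4 and 546 CPM. On day 0 the severe drought libraries already had 1030, 768 and 896 CPM against 97, 66.8 and 363 CPM in their controls.

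The median over the members stepped on the same days, though not all members did. Signed so that a positive value points to the higher set, the median change from one day to the next was 0.58 (log2 scale) in severe control from day 2 to day 3 and -0.66 in severe drought from day 5 to day 6. A group of 78 members had at least 0.5 of their difference, with its sign, in each of 4 partial comparisons: controls alone, drought alone, arms on days 0 to 2 and arms on days 6 to 12. That grouping was made after the values were seen. In these 78 the median steps were 0.94 and -1.0, with 73 of the 78 moving toward the higher set at the first and 7 at the second, and the other 46 steps from day to day in both courses ran from -0.3 to 0.2. In the other 72 members the same 2 steps were 0.15 and -0.2, smaller than some of their other steps. From day 1 to day 2 in severe drought, for example, their median step was -0.73. These are values the choice of members used and are given as a description.

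**Figure D1:**
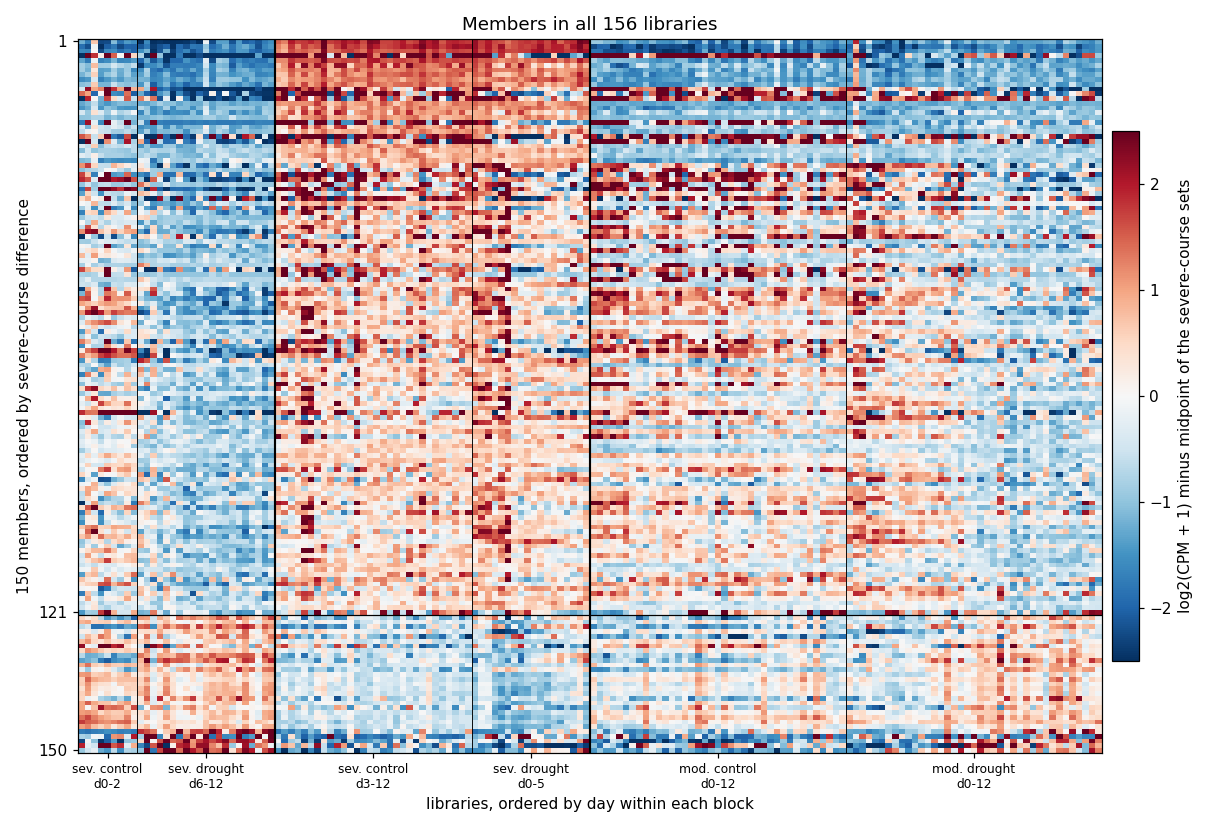
Each row is 1 of the 150 members, ordered by the difference between the severe-course sets, and each column 1 library. Colour is log2(CPM + 1) minus the midpoint of the 2 sets, and the horizontal line parts the 121 members higher in the higher set from the 29 lower in it. The uppermost rows change sharply at the thick line between the sets, while in many rows below them a few libraries are far above the rest of their block.

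The differences ranged from 3.71 down to -1.84 with a median absolute value of 1.06, against 0.15 over all 14443 identifiers. They were at least 1 in 89 members and at least 2 in 15, all of the 15 higher in the higher set. At the edge of the choice, LOC_Os05g15190 (0.8615) and LOC_Os03g30410 (-0.8578) were the last taken. LOC_Os07g45074 (0.8565) and LOC_Os03g11650 (0.855) were the first left out. From the controls alone 121 members kept the sign of their difference, and from the drought libraries alone 150 did.

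In 11 members every library of the higher set was above every library of the lower set, and in no member was it the reverse. Over all 14443 identifiers the sets did not overlap in 0.0762%, which are the same 11, since the choice used this contrast and nothing is read from the count. LOC_Os01g49370 had a lowest, median and highest value of 37.1, 66.4 and 106 CPM in the higher set and 1.89, 4.11 and 16.8 CPM in the lower. LOC_Os01g57960 had 174, 307 and 493 CPM against 15.7, 29.2 and 98.4 CPM. For LOC_Os08g35420 the values were 16.7, 24.3 and 42.0 CPM against 0.546, 1.69 and 6.68 CPM. In each of these the highest library of the lower set was far above that set's median. It was the same library in all 3, severe control day 0 replicate 3. The other members without overlap were LOC_Os04g16770, LOC_Os04g16820, LOC_Os03g42530, LOC_Os09g08910 and 4 of chromosome 2, LOC_Os02g46680, LOC_Os02g46740, LOC_Os02g46880 and LOC_Os02g46910. Those outside the 8 largest differences and the runs were named after their values were seen. The 11 had a ratio of mean CPM between the sets of 3.56 to 26.4.

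On a scale with the mean log2 level of the lower set at 0 and that of the higher set at 1, taken as the median over the 11 members, the higher set ran from 0.86 to 1.2. Severe control day 0 replicate 3 was at 0.35, severe drought day 9 replicate 2 at 0.26, and the remaining libraries of the lower set at 0.1 or below. Without these 2 libraries, picked after their values were seen, 18 members had no overlap between the sets, which were all such identifiers among the 14443 (0.125%). Without all libraries of replicate 1, 2 or 3 the members without overlap numbered 13, 14 and 18, against 0.09%, 0.104% and 0.125% of the 14443. The 2 libraries also lay above their groups in LOC_Os04g16770, at 363 CPM against 97 and 66.8 CPM and at 207 CPM against 34.8 and 47.6 CPM.

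**Figure D2:**
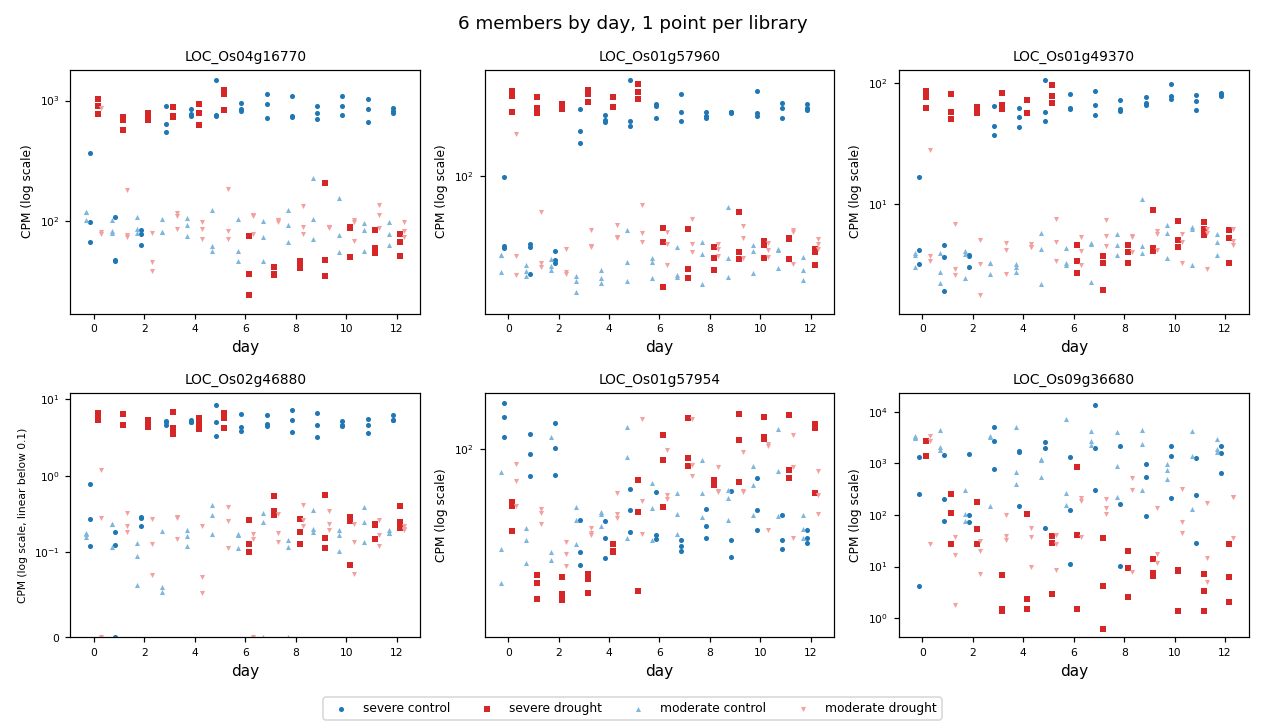
CPM on a log axis against day for 6 members, 1 point per library, in severe control, severe drought, moderate control and moderate drought. In the first 4 panels the severe controls step up after day 2 and the severe drought libraries step down after day 5, LOC_Os01g57954 moves the other way, and LOC_Os09g36680 falls under drought in both courses with wide spread.

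The 77 other moderate libraries lay with the lower set in these 11 members. On the scale above they ran from -0.12 to 0.22 with a median of -0.01, in both arms and on all days. Moderate drought day 0 replicate 2 was at 0.66. In LOC_Os04g16770 it had 865 CPM, against 80.3 and 78.2 CPM in replicates 1 and 3 and 38.3 to 225 CPM in the other moderate libraries. In LOC_Os03g42530 it had 6.16 CPM, against 0.138 and 0.61 CPM in its replicates. In 7 of the 11 members it was nearer the higher set, while the means of the moderate libraries were nearer the lower set in all 11. It differed from the mean of replicates 1 and 3 in the direction of the higher set in 11 of the 11 members. It did so in 30 of the 30 members of the runs described next. Over all 150 members it did so in 123, against 42.7% of the 14443 identifiers. It was above the range of the other moderate libraries in 29 of the 150. On the scale taken over all 150 it was at 1.1, near the 1.05 of replicate 3, with replicate 1 at 0.59. Over all 150 members the moderate libraries ran from -0.19 to 1.1 with a median position of 0.51. The placing with the lower set thus does not extend to the members as a whole. Positions differed by arm and day: controls of day 0 were at 0.98, 0.94 and 0.81, and drought libraries of day 8 at 0.09, -0.13 and 0.0. Some controls were low too, such as day 11 replicate 2 at 0.03.

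Over all 150 members the highest values were gathered in a few libraries. Each member was scored in the set where it was higher. Of the 121 members higher in the higher set, severe drought day 1 replicate 3 held the highest value for 18. For severe control day 5 replicate 2 it was 17, for severe control day 4 replicate 2 it was 16 and for severe control day 7 replicate 1 it was 15. The choice of members used these values. LOC_Os09g36680, with a difference of 3.24, had 4.16, 1350 and 254 CPM in severe control on day 0 and 2740, 5070 and 776 CPM on day 3. In severe drought it had 28.0, 38.8 and 2.89 CPM on day 5 and 41.3, 1.47 and 861 CPM on day 6. It varied by far more within a day than between the sets' days and did not step down after day 5 as LOC_Os04g16770 did.

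Some members lay near each other by identifier number. With steps of at most 500 in identifier number, 30 members formed 5 runs of at least 3, another 30 formed 15 pairs and 90 lay alone. Steps within the pairs ran from 2 to 500, so not all pairs are adjacent genes. How many runs and pairs as many other identifiers would form was not counted. Per chromosome, members were 0.729% of the identifiers considered on chromosome 2 and 1.79% on chromosome 9, the lowest and highest shares.

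The longest run was on chromosome 4, from LOC_Os04g16722 to LOC_Os04g16874, with 12 members among 17 identifiers that passed the CPM minimum. In it 7 members were higher and 5 lower in the higher set, and their order along the chromosome was mixed. LOC_Os04g16728, among the 8 lowest differences with -1.21, averaged 2.24 ± 0.642 CPM over the higher set (SD, n = 48), against 6.88 ± 3.27 CPM over the lower (SD, n = 30). LOC_Os04g16748 was at 20.3 ± 8.14 CPM in the higher set and 4.76 ± 2.28 CPM in the lower. Their differences were of opposite sign. LOC_Os04g16818, LOC_Os04g16822 and LOC_Os04g16722 were named after their values were seen. LOC_Os04g16818 averaged 21.1 ± 6.58 CPM over the higher set (SD, n = 48), against 38.5 ± 9.63 CPM over the lower (SD, n = 30). Its neighbour LOC_Os04g16820 was at 22.5 ± 4.35 CPM in the higher set and 3.12 ± 1.65 CPM in the lower. The next, LOC_Os04g16822, was at 21.6 ± 6.59 CPM in the higher set and 42.2 ± 11.1 CPM in the lower. So 3 neighbours by number were lower, higher and lower in the higher set. LOC_Os04g16722 had the highest counts of the run, 1440 ± 297 CPM in the higher set against 583 ± 254 CPM in the lower. The 5 other identifiers in the span had a median absolute difference of 0.51.

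A run on chromosome 1, LOC_Os01g57954 to LOC_Os01g58020, held 7 of the 8 identifiers in its span that passed the minimum. LOC_Os01g57954 and LOC_Os01g57956 were lower in the higher set, and the 5 that follow were higher. LOC_Os01g57954 averaged 44.1 ± 13.3 CPM over the higher set (SD, n = 48), against 103 ± 26.7 CPM over the lower (SD, n = 30). LOC_Os01g58020, at the other end, was at 67.0 ± 28.3 CPM in the higher set and 10.2 ± 6.95 CPM in the lower. LOC_Os01g57962 and LOC_Os01g57968 had differences of 1.70 and 1.61. The one identifier in the span that was not a member had a difference of -0.20. The direction thus changed once along this run, between LOC_Os01g57956 and LOC_Os01g57960.

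The third run, LOC_Os02g46650 to LOC_Os02g46910 on chromosome 2, held 5 members among 14 identifiers that passed the CPM minimum, of 27 in its span, and all 5 were higher in the higher set. The other 9 that passed had a median difference of 0.11 and lay between the members. The fourth run, LOC_Os01g03310, LOC_Os01g03320 and LOC_Os01g03340, comprised the 3 identifiers that passed the CPM minimum, of 4 in its span. LOC_Os01g03340 ran from 1.94 to 315 CPM in the higher set (median 22.9) and from 0 to 85.1 CPM in the lower (median 1.67). The sets overlapped widely there, and from the control libraries alone its difference was -0.08, against 2.41 over both arms. The fifth, LOC_Os06g39700 to LOC_Os06g39740 on chromosome 6, had LOC_Os06g39700 at 4.91 ± 1.59 CPM in the higher set and 10.4 ± 3.69 CPM in the lower. LOC_Os06g39708 was at 76.7 ± 19.8 CPM in the higher set and 12.8 ± 6.81 CPM in the lower. Thus 3 of the 5 runs held members of both directions.

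**Figure D3:**
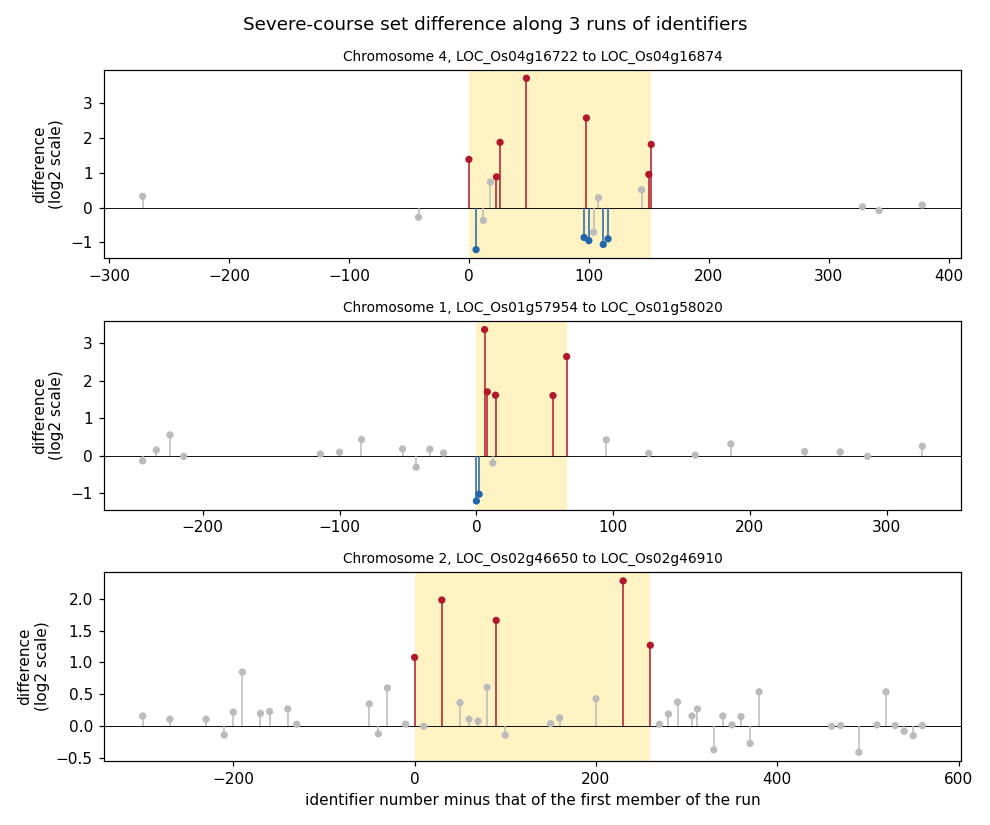
Difference between the severe-course sets (log2 scale) against identifier number, counted from the first member, for the 3 runs with the most members. Red and blue points are members higher and lower in the higher set, grey points other identifiers with at least 2 CPM, and the shaded band is the span of the run. Members of both directions lie together on chromosomes 4 and 1, and only higher ones on chromosome 2.

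Moderate drought day 0 replicate 2 did not take the same place in every run. It was at 0.85 on the scale between the sets for the chromosome 4 run, where the other moderate libraries ran from -0.09 to 0.49. For the chromosome 1 run it was at 0.81, where they ran from -0.15 to 0.45. For the chromosome 2 run it was at 0.21, where the other moderate libraries ran from -0.17 to 0.16 and the higher set from 0.78 to 1.3. In LOC_Os02g46680 it had 0.616 CPM, inside the range of 0 to 0.666 CPM of the other moderate libraries. In LOC_Os02g46880, of the same run, it had 1.17 CPM, above their range of 0 to 0.415 CPM and below the 3.25 CPM of the lowest library of the higher set. It was above the range of the other moderate libraries in 1 of the 5 members of the chromosome 2 run, 6 of the 12 on chromosome 4 and 5 of the 7 on chromosome 1. In LOC_Os01g57962 it had 5.73 CPM, above their range of 0.148 to 2.61 CPM. By its median position the library was thus nearer the higher set in the runs on chromosomes 4 and 1 and nearer the lower set in that on chromosome 2. Severe control day 0 replicate 3, of the lower set, was at 0.57, 0.51 and 0.09 for the runs on chromosomes 4, 1 and 2.

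The members' identifiers also differed in form. Most serial numbers end in 0, and 29 of the 150 members (19.3%) did not, against 7.47% of the 14443 identifiers. In the runs it was 15 of 30, among them 10 of the 12 on chromosome 4 and 4 of the 7 in the run from LOC_Os01g57954. Outside the runs it was 14 of 120 (11.7%), and among the 11 members without overlap it was 0. Among the 29 members lower in the higher set it was 12 (41.4%). Of these, 5 lay in the chromosome 4 run and 2 in the run from LOC_Os01g57954, so they are not 12 separate places. LOC_Os05g22716 with LOC_Os05g22718 and LOC_Os09g19952 with LOC_Os09g19954 were pairs of this form, named after their values were seen, and all 4 were lower in the higher set, with differences of -1.18, -1.02, -0.88 and -1.03. LOC_Os02g24632 and LOC_Os02g24634 were both higher, with 1.22 and 1.07. Of all 15 pairs, up to 500 numbers apart, 12 held members of the same direction. With 121 of the 150 members higher in the higher set, most pairs would share a direction anyway, so nothing is read from this count. Identifiers 2 numbers apart can overlap or have near-identical copies, and how such reads were divided is not given in the sources used here, so their separate values are uncertain.

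No member was off in 1 set and on in the other when off means at most 0.1 CPM and on at least 2 CPM over the pooled libraries of a set. Among all 14443 identifiers 0.0208% met this, 3 identifiers that were not members. In each of the 3, LOC_Os02g45420, LOC_Os02g45450 and LOC_Os08g36920, 3 libraries carried over 90% of the counts (92.1%, 90.3% and 98.1%). With off at 0.5 CPM, 6 members qualified, all off in the lower set, out of 12 of the 14443 identifiers (0.0831%). The CPM minimum was a mean over 48 libraries of the higher set and 30 of the lower. Identifiers off in the lower set therefore passed it more easily than those off in the higher set. LOC_Os02g46880 had 3.25 to 8.39 CPM in the 48 libraries of the higher set and 0 to 0.777 CPM in the lower, with 1 library at 0. LOC_Os02g46680 had 1.95 to 6.19 CPM against 0 to 0.593 CPM, with 5 libraries of the lower set at 0. In the other 4, LOC_Os09g25490, LOC_Os01g06580, LOC_Os01g62490 and LOC_Os03g16610, the higher set itself ran from 0.102 CPM or 0 to between 37.5 and 53.3 CPM, so that the sets overlapped. At the depth of these libraries 3 counts are 0.124 to 0.467 CPM, and a value below that in a single library cannot be told from 0. Pooled values rest on the counts of all libraries of a set, so this limit does not apply to them.

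The chromosome 2 run lies in a longer stretch that holds other weakly counted identifiers. From LOC_Os02g46580 to LOC_Os02g47040, bounds set and once widened after the values were seen, 46 identifiers had counts. Of these, 19 were under 1 CPM in the lower set, and all 19 were higher in the higher set, 10 of them with no overlap. Being low in the lower set is one side of that difference, so these counts are a description and support nothing. Only 3 of the 19 reached the CPM minimum and are members. LOC_Os02g46630, not a member, had 2.94 pooled CPM in the higher set, 0.132 in the lower and 0.105 in the moderate course. LOC_Os02g46780 had 1.75, 0.0594 and 0.0571 CPM. The 16 identifiers of the stretch at 10 CPM or more in the lower set had differences between -0.37 and 0.37. The 11 between 1 and 10 CPM, 2 of them members, had differences from 0.04 to 1.27 with a median of 0.43. Over the 19 the pooled difference ran from 0.248 CPM in LOC_Os02g46790 to 4.79 CPM in LOC_Os02g46880. LOC_Os02g46800 and LOC_Os02g46810, at 3.33 and 2.16 pooled CPM in the lower set, had differences of 0.04 and 0.13, so a low level in the lower set did not always go with a difference. These identifiers were named after their values were seen.

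Summed over the 19 identifiers, each library of the higher set had 23.6 to 49.1 CPM (median 31.8) and each of the lower set 2.33 to 5.13 CPM (median 3.26). The moderate libraries had 1.83 to 6.67 CPM (median 3.24) without moderate drought day 0 replicate 2, which had 7.21 CPM. In severe control the sum was 2.95, 3.84 and 4.51 CPM on day 2 and 28.2, 31.8 and 31.4 CPM on day 3. In severe drought it was 33.6, 31.7 and 30.3 CPM on day 5 and 2.94, 3.45 and 4.06 CPM on day 6. No library was between 7.21 and 23.6 CPM. The sum in severe control day 0 replicate 3 was 4.97 CPM, within the lower set, although that library stood above the rest of the lower set in LOC_Os04g16770 and LOC_Os01g57960.

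Identifiers quiet in the lower set and the moderate course (under 0.1 CPM in both, 20673 of them) were grouped in bins of 200 numbers with at least 4 such identifiers. The 3 bins with the highest median in the higher set, of 2173 bins, were neighbours on chromosome 2, at 0.63, 0.185 and 0.141 CPM. The highest bin on any other chromosome was at 0.102 CPM, where the lower set had 0.0709 CPM. The median over bins was 0.00626 CPM. The bins were defined after the values were seen and are a description.

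**Figure D4:**
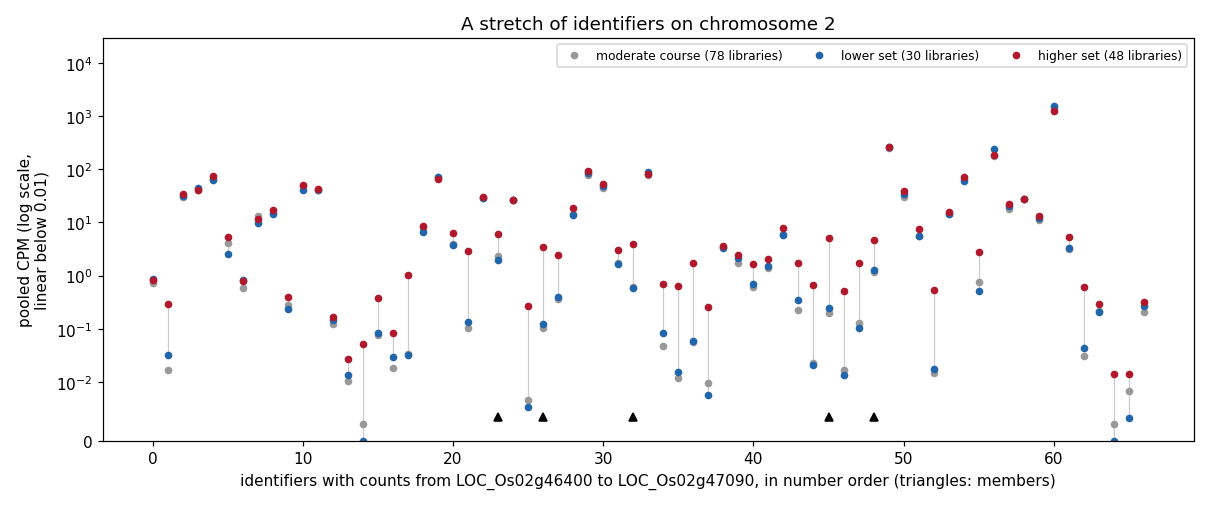
Pooled CPM on a log axis for each identifier with counts in a stretch of chromosome 2, in number order, in the higher set, the lower set and the moderate course. Identifiers at 10 CPM or more have the 3 points together, while many below that have the higher set well above the other 2, and triangles mark the 5 members. The axis is linear below 0.01 CPM.

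The moderate course, which the choice of members did not use, allowed a test of the same days and arms. The mean of moderate control days 3 to 12 and drought days 0 to 5 was compared with that of control days 0 to 2 and drought days 6 to 12, by edgeR's quasi-likelihood test with Benjamini-Hochberg adjustment over 19338 genes, and "called" means an adjusted p under 0.05. Of the 150 members 82 were called (54.7%), against 26.7% of all genes, and all 82 had the sign of their severe-course difference, 59 higher and 23 lower, where all genes had 12.3% and 14.4%. Among the 14443 identifiers 29.1% were called with the sign of that difference and 2.31% against it. The median absolute log2 fold change was 0.45 in members and 0.1 in all genes. The count was 82 also without moderate drought day 0 replicate 2, and 49 and 54 (32.7% and 36.0%) without all libraries of replicate 2 or of replicate 3, where all genes had 11.7% and 14.4%.

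The calls were unevenly spread over the kinds of members described above. None of the 11 members without overlap was called by edgeR, 0 of them had an unadjusted p under 0.05, and their log2 fold changes ran from -0.44 to 0.07 with a median of -0.06. In LOC_Os04g16770 the log2 fold change was -0.06 (SE 0.13, adjusted p = 0.77 by edgeR's quasi-likelihood test). In LOC_Os01g49370 it was -0.02 (SE 0.12, adjusted p = 0.93), where the severe-course difference was 3.67. Of the 30 members in runs 5 were called, the largest being LOC_Os01g03340 with 1.95 (SE 0.28, adjusted p = 1.2e-07). Of the 78 members with at least 0.5 of their difference in each partial comparison 28 were called, and of the other 72 it was 54. Of all genes 26.7% were called. Whether these shares differ was not tested.

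**Figure D5:**
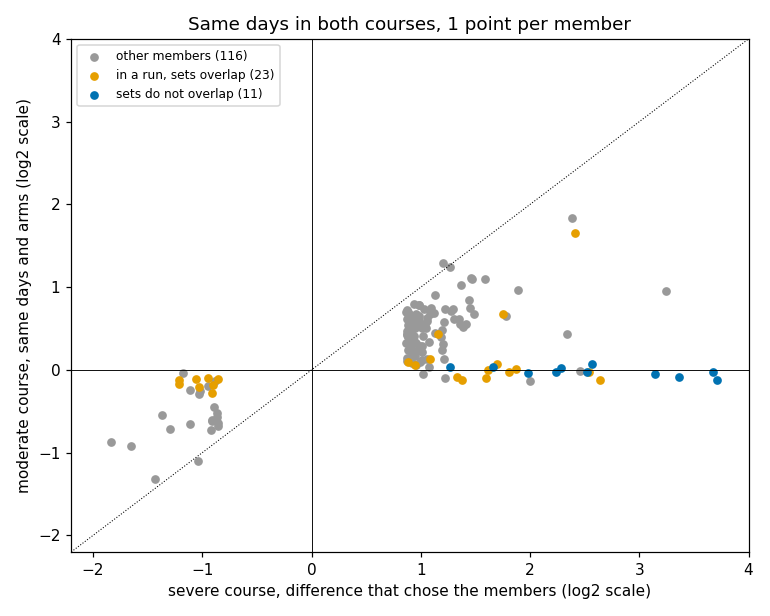
For each of the 150 members, the difference between the sets in the severe course that chose it (x axis, log2 scale) and the difference between the same days and arms in the moderate course (y axis, log2 scale). The 11 members without overlap lie close to the line of no moderate difference, as do most of those in runs, many others lie above 0 on the right and below 0 on the left, and the dotted line marks equal differences.

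The largest moderate differences were in members with few counts and wide spread. LOC_Os01g62490 had a log2 fold change of 3.06 (SE 0.95, adjusted p = 0.011), with 0 to 33.2 CPM (median 0.968) in the 48 libraries weighted up and 0 to 19.2 CPM (median 0.0221) in the 30 weighted down. LOC_Os03g16610 had 2.47 (SE 0.77, adjusted p = 0.011). LOC_Os09g23300 had -1.65 (SE 0.54, adjusted p = 0.015). Without replicate 3 these 3 calls ended, with adjusted p of 0.073, 0.13 and 0.49 by the same test. Without replicate 1 or 2 the test gave no usable p for LOC_Os01g62490 and LOC_Os03g16610, in which whole day groups were then at 0, and for LOC_Os09g23300 adjusted p was 0.17 and 0.16. LOC_Os06g07790 had -1.51 (SE 0.38, adjusted p = 0.0014), with a median of 3.56 CPM in the 48 libraries and 9.36 CPM in the 30, and its call ended without replicate 3 (adjusted p = 0.058).

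Drought against control within the moderate course was tested next, with the same libraries as the same-days comparison, so these results are not independent of it. On days 1 to 4, 56 members were called (37.3%), against 41.5% of all genes, 18 higher and 38 lower in drought, where 20.5% of all genes were higher and 21.0% lower. On days 5 to 8, 64 were called (42.7%), against 27.9%, 14 higher and 50 lower, where all genes had 13.8% and 14.1%. On days 9 to 12 it was 68 (45.3%), against 22.9%, 16 higher and 52 lower, where all genes had 11.8% and 11.1%. The members' share was above that of all genes on days 5 to 8 and 9 to 12. On days 1 to 4 it was below in this fit but above with only the libraries compared, at 50.7% against 42.2% in DESeq2 and by a small margin in edgeR (77 members called, against 50.8% of all genes), and above without replicate 3, at 31.3% against 29.3%, so no direction is given for that stretch. Of the 121 members higher in the higher set, 52 fell and 1 rose on days 9 to 12, and of the 29 lower in it 15 rose and 0 fell in this edgeR test. Their median log2 fold changes were -0.67 and 0.55, against 0 for all genes. On days 5 to 8 the 121 had 50 falls and 4 rises and the 29 had 10 rises and 0 falls. On days 1 to 4 there was no such split, with 26 falls and 12 rises among the 121, 12 falls and 6 rises among the 29, and medians of -0.21 and -0.24.

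LOC_Os09g36680 changed most on days 1 to 4. Moderate control libraries had 77.1 to 5030 CPM (median 1240) and drought libraries 1.77 to 98.7 CPM (median 32.1), which overlap at the edges (log2 fold change -5.51, SE 0.89, adjusted p = 2.4e-07 by edgeR). LOC_Os09g36700, its neighbour by number, fell with a log2 fold change of -5.38 on days 1 to 4 and -4.40 on days 9 to 12. LOC_Os03g30410 rose on days 1 to 4 and 5 to 8, with log2 fold changes of 1.87 and 3.74. On days 5 to 8 it had 0 to 1.64 CPM in control and 0.572 to 12.1 CPM in drought. These members thus differed between the arms of the moderate course, whose libraries the choice of members did not use. The ranges given for LOC_Os09g36680 and LOC_Os03g30410 overlapped.

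On days 9 to 12 LOC_Os04g48880 rose from 3.1 to 6.48 CPM (median 3.89) in control to 8.05 to 28.1 CPM (median 18.7) in drought, with no overlap (log2 fold change 2.14, SE 0.19, adjusted p = 1e-15 by edgeR's quasi-likelihood test). LOC_Os01g47370, the member with the lowest difference between the sets, rose with 2.11 (SE 0.42, adjusted p = 5.1e-05). LOC_Os09g04339 fell with -5.09, which was no longer called without replicate 1 or 3 (adjusted p = 0.18 and 0.063 by the same test). On days 5 to 8 LOC_Os09g23300 rose with 4.24, which was no longer called without replicate 1 or 2 (log2 fold changes 4.77 and 3.35, adjusted p = 0.16 and 0.12 by edgeR). Its drought values there ran from 0.222 to 234 CPM around a median of 0.667.

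Of the same 78 members 29 were called on days 1 to 4, 14 on days 5 to 8 and 15 on days 9 to 12. Of the other 72 these were 27, 50 and 53, where all genes had 41.5%, 27.9% and 22.9%. Whether the shares differ was not tested. Their median absolute log2 fold changes on days 9 to 12 were 0.33 and 1.26. Among the 11 members without overlap the edgeR calls numbered 1, 1 and 0. An unadjusted p under 0.05 by the same test was found in 3, 1 and 2 of the 11, in the last stretch LOC_Os09g08910 and LOC_Os02g46680. Log2 fold changes of the 11 on days 1 to 4 ran from -0.32 to 1.09. LOC_Os01g57960 accounts for both calls. It rose by 0.59 on days 1 to 4 (SE 0.18, adjusted p = 0.0058 by edgeR) and by 0.47 on days 5 to 8 (SE 0.18, adjusted p = 0.042).

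In the severe course only days 3 to 5 have both arms in the same set. The choice of members averaged these libraries over both arms with equal weight. It did not use the difference between the arms on these days, but it used the levels, so the counts that follow are not independent of it and nothing is read from the members' share. On those days 81 members were called (54.0%), against 39.5% of all genes, 18 higher and 63 lower in drought, where all genes had 18.1% and 21.5%. The count was 42 (28.0%) without replicate 2, against 21.0% of all genes. Without severe control day 4 replicates 2 and 3, left out after their values were seen, 56 were called (37.3%), against 25.1%. LOC_Os09g36680 had 55.2 to 5070 CPM in control and 1.36 to 104 CPM in drought (log2 fold change -7.13, SE 1.12, adjusted p = 2.2e-07 by edgeR). LOC_Os03g30410 had 0 to 0.94 CPM in control and 1.69 to 13.1 CPM in drought (log2 fold change 4.11, SE 0.66, adjusted p = 3.9e-07). Both LOC_Os01g47370, with 2.61, and LOC_Os09g04339, with -8.21, were called, but the second call was lost without replicate 2 (adjusted p = 0.07) and without the 2 day 4 libraries (adjusted p = 0.068). Of the 11 members without overlap 1 was called, LOC_Os02g46910 with -0.56 (SE 0.2, adjusted p = 0.018). LOC_Os04g16770 had -0.07 (SE 0.25, adjusted p = 0.85).

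The chromosome 1 run of LOC_Os01g03310, LOC_Os01g03320 and LOC_Os01g03340 fell under drought in the 3 stretches of the moderate course and on days 3 to 5 of the severe. On days 5 to 8 of the moderate course the log2 fold changes were -1.34, -3.15 and -3.40 (adjusted p = 0.0015, 0.00053 and 2.3e-08 by edgeR). On days 3 to 5 of the severe course they were -1.75, -3.10 and -2.57 (adjusted p = 0.00023, 0.0044 and 3.1e-05). In the chromosome 4 run 3, 0 and 1 of the 12 members were called in the 3 stretches of the moderate course and 3 on days 3 to 5 of the severe course, where all genes had 41.5%, 27.9%, 22.9% and 39.5%.

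The severe libraries of days 3 to 5 also enter the next comparison, so it too is not independent of the choice of members. The drought response on days 3 to 5 differed between the courses in 5 members (3.33%), against 2.30% of all genes, all 5 lower in the severe course than in the moderate, as were 1.92% of all genes. The share is near that of all genes and is not a result about the members. In all 5 the highest control library was severe control day 4 replicate 2 and the next replicate 3 of that day. LOC_Os03g08330 had 16.6, 710 and 64.9 CPM on that day in the severe controls and 1.19 to 5.18 CPM on days 3 and 5. LOC_Os07g37620 had 20.4, 240 and 166 CPM on that day and 12.4 to 22.5 CPM on days 3 and 5. Without these 2 libraries 0 members were called by edgeR, as without replicate 2 or replicate 3 throughout, and the log2 differences of LOC_Os03g08330 and LOC_Os07g37620 went from -2.99 and -1.96 to -1.61 and -0.99. None of the 11 members without overlap was called by edgeR, with log2 differences from -1.69 to -0.08, and LOC_Os02g46680 alone had an unadjusted p under 0.05.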

How the data were processed

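The authors deposited 1 table of raw counts, made with STAR and featureCounts 2.0.0 on IRGSP-1.0 according to the submitters' processing notes. Libraries kept strand, per the labels' protocols, while how strand and multiply matching reads were handled in counting is not given in the sources used here. Of the table's columns, 156 were matched to samples by name and 4 were not used.

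The members and the groupings of members were chosen with earlier results of these data known. CPM was computed from column totals, and differences used log2(1 + CPM). The difference that chose the members is described without a test. The tests on severe days 3 to 5 compare arms within the higher set, a contrast the choice did not use, in libraries that it did use. Tests used edgeR 4.0.16 (R 4.3.3) quasi-likelihood fits on the counts of all 156 libraries in 52 groups of 3, with TMM scaling and filterByExpr (minimum count 10, minimum total 15), which left 19338 genes, 104 residual degrees of freedom and all 150 members. Benjamini-Hochberg adjustment ran over all genes, with 0.05 as the threshold. The code was tested on simulated data. DESeq2 1.42.0, other scalings, filters, library choices and a replicate block were alternatives.

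The text names the 8 members with the largest and the 8 with the smallest difference, up to 4 in each run, those at the edge of the choice, and the 2 largest rises and falls in each test. All others in the text were named after their values were seen. No sequence is printed, since no annotation at hand holds these identifiers. A value of 3 counts was 0.114 to 0.467 CPM, depending on depth, which covers counting error only.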

Additional observations from a re-analysis of the deposited data

Results flagged for a closer look

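In 5 members the drought response on days 3 to 5 differed between the severe and the moderate course by the test of that difference itself (edgeR's quasi-likelihood test, Benjamini-Hochberg adjusted over 19338 genes). That is 3.33% of the members, near the 2.30% of all genes, and the severe libraries tested are among those that chose the members. The log2 difference, severe minus moderate, was -2.99 for LOC_Os03g08330 (adjusted p = 0.00565), -1.96 for LOC_Os07g37620 (adjusted p = 0.0051) and -1.87 for LOC_Os02g52010 (adjusted p = 0.0265). It was -1.27 for LOC_Os01g21120 (adjusted p = 0.0281) and -1.11 for LOC_Os03g28940 (adjusted p = 0.0499). In severe control on day 4, replicates 2 and 3 had 1010 and 601 CPM of LOC_Os03g28940 against 133 CPM in replicate 1. They had 290 and 80.8 CPM of LOC_Os02g52010 against 9.96 CPM, and 63.5 and 24.8 CPM of LOC_Os01g21120 against 4.43 CPM. These 2 libraries were the highest of the 9 severe controls of days 3 to 5 in all 5 members. Without them 0 members were called, and 14 of 20483 genes.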

How the results depend on the processing

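Ranking by the control libraries alone shared 67 of the 150 members, and the other alternatives 102 to 137 (126 to 137 without 1 replicate). From the controls alone the difference turned sign in 29 of the 150 members. Among the members named by the rule these were LOC_Os05g33900 (0.51), LOC_Os01g68290 (1.06), LOC_Os01g03340 (-0.08), LOC_Os03g30410 (0.46) and LOC_Os07g37620 (-0.06). It also turned in LOC_Os03g11650 (-0.03), which is not a member. On-off members numbered 6 with off at 0.5 CPM and 0 to 1 without 1 replicate. Members without overlap numbered 13 to 18 without 1 replicate and 18 without the 2 libraries named above. Runs numbered 8 at steps of 1000 and 22 with 300 identifiers. The median moderate position was -0.01 in the members without overlap and 0.06 in the 3 longest runs, both chosen after the data were seen.

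Requiring a 2-fold change as well left 27 members in the same-days comparison (18.0%, against 0.512% of all genes) and 30 on moderate days 1 to 4 (20.0%, against 3.96%). Without 1 replicate the calls ran from 49 to 84 in the same-days comparison, where 11.7% to 18.8% of all genes were called. In the 3 moderate stretches they ran from 40 to 47 (all genes 29.3% to 33.0%), 44 to 57 (14.7% to 21.0%) and 49 to 60 (12.6% to 14.7%). In the first of these stretches the members' shares were 26.7% to 31.3%, near those of all genes. The calls were 42 to 71 on severe days 3 to 5 (all genes 21.0% to 33.4%) and 0 to 7 for severe minus moderate (0.0258% to 2.31%). The severe minus moderate count was 9 on days 3 to 4 (all genes 3.5%) and 0 in edgeR on the compared libraries alone (0.144%). It was 0 without severe control day 4 replicates 2 and 3 (0.0683%) and 4 in DESeq2 (1.5%). The cause of these shifts was not tested. Fits in which whole day groups were at 0 gave no usable p, for 2 members in the same-days comparison without replicate 1 and 2 without replicate 2, 1 on moderate days 9 to 12 without replicate 2, and 10 in the course difference without a filter.

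With a replicate block the calls were 84, 58, 66, 70, 82 and 5 in the same order. All genes then had 27.4%, 42.3%, 28.6%, 23.8%, 40.4% and 2.48%. Same-numbered libraries of the arms were compared within each course and day, by the correlation of their deviations from group means. Over 78 pairs it ran from -0.644 to 0.345 (median -0.00143), with 13 over 0.1 and 18 under -0.1. By this measure the numbers did not pair the arms, and pairing of another kind was not tested. Depth limits values near 3 counts.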
